A study of Mus musculus with 24 samples.

Results

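The 10 genes described here carry water, salt and guanylin signals in the surface cells of the mouse colon. They are Guca2a and Guca2b with their receptor Gucy2c, the water channel Aqp8, the anion exchangers Slc26a3 and Slc26a2, the sodium/proton exchanger Slc9a3, and the sodium channel subunits Scnn1a, Scnn1b and Scnn1g. They were chosen by symbol, 10 of the 24346 symbols in each table, and all 10 had a row in all 24 tables and a value above 0 in every library. All 10 also passed the filter on low values that was applied before testing, which 13799 genes passed.

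The libraries are bulk RNA-seq of colorectal tissue from mice that had all received AOM/DSS, a carcinogen (azoxymethane) followed by a polymer that injures the colon lining (dextran sulfate sodium). Each tissue piece is labelled tumor or normal, and each mouse c-MAF_KO or wild type. By title, the KO label covers KO-1-hetero (3 tumor and 2 normal libraries), KO-8-hetero (3 and 2) and KO-8-homo (3 and 2), where the titles add hetero or homo to ko. The wild-type (WT) label covers WT-young (4 and 2) and WT-old (1 and 2). What the numbers 1 and 8 stand for, the ages behind young and old, the driver of the deletion, and which pieces came from 1 mouse are not given in the labels. No group went without AOM/DSS, so normal tissue here is treated tissue.

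Values are FPKM, fragments scaled to transcript length and to sequencing depth. The sum of FPKM over all genes was 450172 to 612427 in tumors and 583474 to 1016814 in normal tissue. Levels are therefore not fully comparable between libraries, and other scalings were tried as alternatives. Between 12074 and 13290 genes reached 1 FPKM in a library, and relative depth ran from 0.690 to 1.87. Maf, the gene named in the genotype label, ranged from 2.62 to 7.40 FPKM in KO-labelled tumors and from 1.63 to 7.26 FPKM in WT-labelled tumors, and from 1.52 to 6.27 and from 1.37 to 2.82 FPKM in normal tissue. It was thus not lower in the libraries labelled KO, and KO means the label throughout. Xist exceeded 1 FPKM in 6 libraries, all of them hetero: tumor 3 and both normal libraries of KO-1-hetero and of KO-8-hetero. Ddx3y, a Y chromosome gene, was 0.0222 to 0.0454 FPKM in these 6 and 7.20 to 14.8 FPKM in the other 18. By Xist and Ddx3y the 6 came from females and the 18, with all WT and KO-8-homo libraries among them, from males. The labels give no sex. As a check of the tissue label, 9 goblet cell markers summed to 4155 to 31228 FPKM and 10 absorptive colonocyte markers to 349 to 17853 FPKM. Of 5 kidney and urothelium markers, Umod, Upk2 and Aqp2 did not pass the filter, Upk1b and Upk3a passed, and the 5 summed to 0.484 to 12.006 FPKM. Replicates are separate samples by label, but whether each came from a separate mouse is not stated, so p-values measure the spread between these samples.

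In the colon, absorptive cells at the surface take up sodium chloride and water from the gut contents. Slc26a3 exchanges chloride for bicarbonate and works alongside Slc9a3, which exchanges sodium for protons. In the distal colon, sodium also enters through the epithelial sodium channel ENaC, built from the alpha (Scnn1a), beta (Scnn1b) and gamma (Scnn1g) subunits and raised by aldosterone. Guanylin (Guca2a) and uroguanylin (Guca2b) are small secreted peptides that activate the membrane receptor guanylate cyclase C (Gucy2c), which makes cyclic GMP, restrains sodium uptake and favours fluid secretion. Loss of guanylin is a known feature of colon tumors in mice and people.

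The guanylin genes are neighbours. On GRCm38, Guca2a lies at chr4:119637704-119639471 on the plus strand and Guca2b at chr4:119656607-119658954 on the minus strand, 17.1 kb apart and with 3 exons each. The receptor gene Gucy2c is elsewhere, at chr6:136697284-136781765. Among the channel subunits, Scnn1g (chr7:121734479-121768475) and Scnn1b (chr7:121865038-121918514) are 96.6 kb apart on 1 strand, while Scnn1a is at chr6:125320659-125344943. The last 45 coding bases of the guanylin genes, which hold the active peptide, are shown because Guca2a was called lower in tumors and Guca2b was not. Capitals mark the 29 bases (64.4%) that match position by position, read from GENCODE M21 on GRCm38, with the stop codon left out.
Guca2a, chr4:119639228-119639272, plus strand: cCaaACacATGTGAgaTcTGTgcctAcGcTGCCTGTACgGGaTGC
Guca2b, chr4:119656795-119656839, minus strand: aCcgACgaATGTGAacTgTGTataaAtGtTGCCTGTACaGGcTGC

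RefSeq promoters (GRCm38.p6) were found for 7 of the 10 genes. Slc26a2, Scnn1a and Gucy2c had no entry. The 300 bases around each start were searched on both strands for 5 motifs bound by factors of the gut epithelium or by the basal machinery. GTTAAT, part of the HNF1 site, was in 2 of the 7 promoters (Guca2b and Slc26a3) and in 7.1% of all 32851 promoters of this length. The caudal homeobox motif TTTATG was in 1 promoter (Scnn1g) and in 11.9% of all. The GATA factor motif AGATAA was in 1 (Guca2a) and in 11.2% of all. The TATA box motif TATAAA was in 1 (Slc26a3) and in 13.6% of all. CAAAGTC, part of the HNF4 site, was in 0 and in 4.44% of all. Aqp8 and Slc26a3, which ran in parallel across tumors, and the 2 guanylin genes, which were not shown to, are printed for the 160 bases before the RefSeq start, with motifs in capitals. The starts used by RefSeq and GENCODE differ for some of these genes.
Aqp8, chr7:123462134-123462293, plus strand: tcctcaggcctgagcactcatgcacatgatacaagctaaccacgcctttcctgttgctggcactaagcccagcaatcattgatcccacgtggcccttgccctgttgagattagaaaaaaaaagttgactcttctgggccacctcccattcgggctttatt
Slc26a3, chr12:31438059-31438218, plus strand: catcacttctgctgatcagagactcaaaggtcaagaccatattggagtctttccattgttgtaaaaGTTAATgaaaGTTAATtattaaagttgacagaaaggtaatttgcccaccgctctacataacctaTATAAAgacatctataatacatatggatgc
Guca2a, chr4:119637572-119637731, plus strand: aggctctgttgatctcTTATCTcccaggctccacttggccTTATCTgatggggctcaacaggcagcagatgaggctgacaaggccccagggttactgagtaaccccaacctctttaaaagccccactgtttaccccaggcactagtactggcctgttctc
Guca2b, chr4:119658946-119659105, minus strand: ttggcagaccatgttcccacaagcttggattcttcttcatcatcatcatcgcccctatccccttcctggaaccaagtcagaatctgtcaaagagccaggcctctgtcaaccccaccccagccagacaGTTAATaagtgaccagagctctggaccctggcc
Slc26a3 held GTTAAT at 2 places, 94 and 84 bases before the start, and TATAAA 30 bases before it. Guca2a held AGATAA on the reverse strand (printed as TTATCT) 144 and 120 bases before the start, and Guca2b held GTTAAT 33 bases before it. The Aqp8 window held none of the 5.

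Tumors held less RNA of the guanylin Guca2a, its receptor Gucy2c, the water channel Aqp8 and the chloride exchanger Slc26a3 than normal tissue under both genotype labels. In the WT label the Slc26a3 call lay close to the threshold and was lost under several alternatives. Uroguanylin, the sodium/proton exchanger and the beta and gamma channel subunits did not pass the test in either label. Differences were tested with limma on log2(FPKM + 1), adjusted by the Benjamini-Hochberg method over all 13799 genes, with 0.05 as the threshold. In the WT label (5 tumors, 4 normal), 4 of the 10 genes were lower and 0 higher, where 30.4% of all tested genes were called in either direction and 14.8% were called lower. In the KO label (9 tumors, 6 normal), 6 of the 10 were lower and 0 higher, against 47.2% called in either direction and 23.2% called lower. The median difference of the 10 was -1.31 in the WT label and -1.12 in the KO label on the log2 scale, against 0.02 over all tested genes in each. In bulk tissue, fewer cells of a type and less RNA per cell cannot be told apart.

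**Figure D1:**
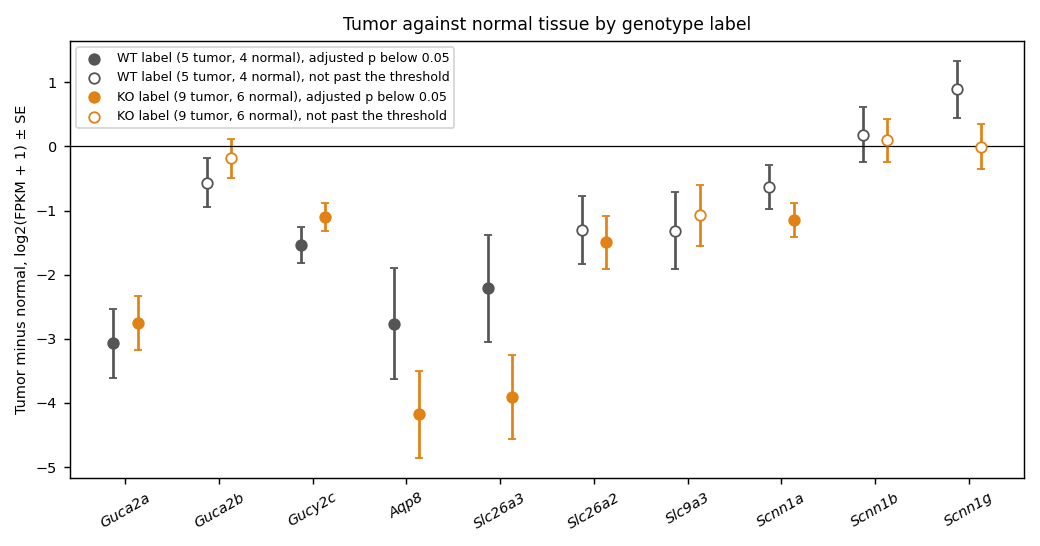
Tumor minus normal difference of each of the 10 genes on the log2(FPKM + 1) scale, with its standard error, for the WT label (5 tumors, 4 normal libraries) and the KO label (9 and 6). Filled points passed an adjusted p of 0.05 and open points did not. The filled points run from -1.10 (Gucy2c, KO label) to -4.18 (Aqp8, KO label), while Guca2b, Slc9a3, Scnn1b and Scnn1g are open in both labels.

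Guca2a was the most abundant of the 10 in normal tissue. WT-young normal libraries gave 2868 and 1258 FPKM and WT-old normal libraries 4419.5 and 2155 FPKM. The WT-young tumors gave 165, 202, 224 and 712 FPKM and the WT-old tumor 367 FPKM, so every WT-labelled tumor was below every WT-labelled normal library. The mean was 8.01-fold lower in tumors, 334 ± 225 (SD, n = 5) against 2675 ± 1336 FPKM (SD, n = 4), a log2 difference of -3.07 (SE 0.54, limma adjusted p = 0.000355). KO-labelled normal libraries ranged from 859 to 3048 FPKM with a median of 2194, and KO-labelled tumors from 115 to 852 with a median of 269. These ranges did not overlap either, although the highest tumor and the lowest normal library, both KO-8-hetero, were nearly equal. The difference was -2.76 (SE 0.42, limma adjusted p = 2.89e-05).

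Guca2b, the other ligand, did not pass the test in either label with all libraries in the fit. In WT-young normal tissue it was 90.7 and 17.0 FPKM, and in WT-old normal tissue 109 and 63.0 FPKM. The WT-young tumors gave 38.1, 41.6, 44.2 and 50.5 FPKM and the WT-old tumor 24.1 FPKM. The tumors lay inside the spread of normal tissue, and WT-young normal 2 was the lowest of all 24 libraries. KO-labelled normal libraries ranged from 22.9 to 59.2 FPKM (median 45.1) and KO-labelled tumors from 22.2 to 52.9 (median 34.7). The log2 difference was -0.56 (SE 0.39, limma adjusted p = 0.276) in the WT label and -0.18 (SE 0.30, limma adjusted p = 0.645) in the KO label. Single normal libraries decide the WT-labelled value. Without WT-young normal 2, the difference in the WT label was -1.13 and passed (limma adjusted p = 0.0103), and without WT-young normal 1, that in WT-young alone was 1.30 and passed in the other direction (limma adjusted p = 0.0220). The ratio of Guca2a to Guca2b in FPKM was 31.6 to 74.0 over the 10 normal libraries (median 42.1) and 2.32 to 18.6 over the 14 tumors (median 7.87). Guanylin thus exceeded uroguanylin in every library, and the tumor and normal ratios did not overlap. No test was run on the ratio.

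Gucy2c, the receptor, was 95.6 and 85.4 FPKM in WT-young and 129.6 and 95.3 FPKM in WT-old normal tissue. The WT-young tumors gave 23.8, 25.2, 38.4 and 57.5 FPKM and the WT-old tumor 33.3 FPKM, again all below the normal libraries. The log2 difference was -1.54 (SE 0.28, limma adjusted p = 0.000465). In the KO label the receptor ran from 48.3 to 111 FPKM in normal tissue (median 85.1) and from 24.9 to 70.8 in tumors (median 36.2). These ranges overlapped through KO-8-hetero tumor 3 (70.8 FPKM), KO-1-hetero tumor 3 (51.3 FPKM) and KO-8-hetero normal 2 (48.3 FPKM). The difference was -1.10 (SE 0.22, limma adjusted p = 0.000405).

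Aqp8, which passes water through the apical membrane, was 113 and 521 FPKM in WT-young and 223 and 513 FPKM in WT-old normal tissue. WT-young tumors gave 9.78, 17.2, 42.1 and 78.3 FPKM, and the WT-old tumor 199.6 FPKM. The WT-old tumor was above WT-young normal 1 and was the highest of all 14 tumors. The log2 difference in the WT label was -2.77 (SE 0.87, limma adjusted p = 0.0193). KO-labelled normal libraries ranged from 108 to 684 FPKM (median 323) and KO-labelled tumors from 1.84 to 90.4 (median 13.7), with no overlap. The difference was -4.18 (SE 0.68, limma adjusted p = 5.23e-05), and the mean was 13.4-fold lower in tumors. In the WT label the call was lost without WT-young tumor 1 (limma adjusted p = 0.0614), WT-young tumor 2 (0.0521), WT-young normal 2 (0.0566) or WT-old normal 2 (0.0563).

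Slc26a3 behaved much like Aqp8. It was 115 and 626 FPKM in WT-young and 208 and 469.5 FPKM in WT-old normal tissue. WT-young tumors gave 20.1, 49.0, 35.4 and 135 FPKM and the WT-old tumor 185 FPKM, the highest of the 14 tumors here too. The difference was -2.21 (SE 0.83, limma adjusted p = 0.0461), close to the threshold. Leaving out any 1 of 6 of the 9 WT-labelled libraries raised the limma adjusted p to between 0.0671 and 0.1297. These were WT-young tumors 1, 2 and 3, WT-young normal 2, and both WT-old normal libraries. The WT-labelled call was also lost under 7 of 13 other alternatives, with a limma adjusted p of up to 0.1217. In the KO label, normal libraries ranged from 148 to 592 FPKM (median 326) and tumors from 2.93 to 87.5 (median 15.5), a difference of -3.91 (SE 0.65, limma adjusted p = 6.53e-05) with no overlap. Across the 10 genes, the ranges of tumors and normal tissue did not overlap for 3 in the WT label (Guca2a, Gucy2c and Slc9a3, all lower) and for 3 in the KO label (Aqp8, Slc26a3 and Guca2a, all lower). Over all tested genes, such a gap with tumors lower was found for 10.9% and 7.05%.

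Slc26a2, a sulfate transporter of the same family as Slc26a3, passed the test in the KO label but not in the WT label. WT-labelled normal tissue gave 37.6 and 206 FPKM (WT-young) and 82.0 and 131 FPKM (WT-old). The tumors gave 15.5, 25.3, 39.5 and 72.3 FPKM (WT-young) and 70.8 FPKM (WT-old), a difference of -1.30 (SE 0.53, limma adjusted p = 0.0633). These groups overlapped, and the WT-young normal libraries lay far apart. The WT-labelled difference passed without WT-young normal 1 (-1.75, limma adjusted p = 0.0201), WT-young tumor 4 (-1.53, 0.0378) or the WT-old tumor (-1.52, 0.0377). In the KO label, normal tissue ran from 28.8 to 151 FPKM (median 60.4) and tumors from 9.29 to 41.7 (median 25.9), a difference of -1.49 (SE 0.41, limma adjusted p = 0.00547). Per length, Slc26a3 exceeded Slc26a2 in all 10 normal libraries, by 2.005 to 15.4 times (median 3.32). In tumors that ratio was 0.280 to 3.14 (median 1.17), so Slc26a2 was the higher of the pair in some tumors.

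Slc9a3 was 36.1 and 24.1 FPKM in WT-young and 73.4 and 66.1 FPKM in WT-old normal tissue. WT-young tumors gave 15.7, 21.9, 17.3 and 15.9 FPKM and the WT-old tumor 18.003 FPKM. The tumors were tight and all below the normal libraries, yet the difference of -1.31 (SE 0.60, limma adjusted p = 0.0987) did not pass. KO-labelled normal tissue ran from 12.9 to 73.0 FPKM (median 29.3) and tumors from 1.13 to 32.6 (median 16.7), a difference of -1.07 (SE 0.47, limma adjusted p = 0.0656). It passed at -2.21 without the 6 libraries with Xist above 1 FPKM (limma adjusted p = 0.0298). It also passed without KO-1-hetero normal 1, KO-8-hetero tumor 1, KO-8-hetero normal 2 or KO-8-homo tumor 1 (limma adjusted p 0.0341 to 0.0494). The lowest value, 1.13 FPKM, was KO-8-hetero tumor 2, and the highest tumor, 32.6 FPKM, was KO-8-hetero tumor 1.

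The 3 channel subunits differed in level and in pattern. Scnn1a, the alpha subunit, was the most abundant, with 21.8 to 69.8 FPKM in WT-labelled normal tissue (WT-young 21.8 and 69.8, WT-old 28.4 and 46.2). WT-young tumors gave 14.1, 17.7, 25.5 and 48.1 FPKM and the WT-old tumor 25.5 FPKM, a difference of -0.63 (SE 0.34, limma adjusted p = 0.159), which passed without WT-young tumor 4 (-0.87, limma adjusted p = 0.0463). In the KO label it fell from 27.5 to 78.9 FPKM (median 39.2) in normal tissue to 12.9 to 29.97 (median 19.2) in tumors, a difference of -1.15 (SE 0.27, limma adjusted p = 0.00143). Without the 6 libraries with Xist above 1 FPKM the difference was -1.04 and the limma adjusted p 0.0688.

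Scnn1b, the beta subunit, was 4.50 and 3.86 FPKM in WT-young and 4.21 and 1.96 FPKM in WT-old normal tissue. WT-young tumors gave 5.46, 4.73, 4.45 and 6.91 FPKM and the WT-old tumor 1.20 FPKM. KO-labelled normal tissue ran from 1.10 to 6.21 FPKM (median 3.81) and tumors from 0.842 to 7.88 (median 3.69). Tumor and normal tissue overlapped in both labels, with differences of 0.18 (SE 0.43, limma adjusted p = 0.768) and 0.10 (SE 0.34, limma adjusted p = 0.827).

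Scnn1g, the gamma subunit, was the scarcest of the 10 and the most uneven in normal tissue. It was 0.115 and 2.99 FPKM in WT-young and 0.0426 and 1.52 FPKM in WT-old normal tissue. WT-young tumors gave 1.64, 3.98, 2.86 and 3.10 FPKM and the WT-old tumor 1.30 FPKM. KO-labelled normal tissue ran from 0.0308 to 3.96 FPKM (median 0.613) and tumors from 0.169 to 2.81 (median 0.864). Normal libraries therefore spanned both the lowest and nearly the highest values in the series. The differences were 0.89 (SE 0.45, limma adjusted p = 0.129) in the WT label and -0.00 (SE 0.35, limma adjusted p = 0.995) in the KO label. Without WT-young normal 2 the WT-labelled difference was 1.26 and passed (limma adjusted p = 0.0433). With a pseudocount of 1, differences below 1 FPKM are compressed on this scale.

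**Figure D2:**
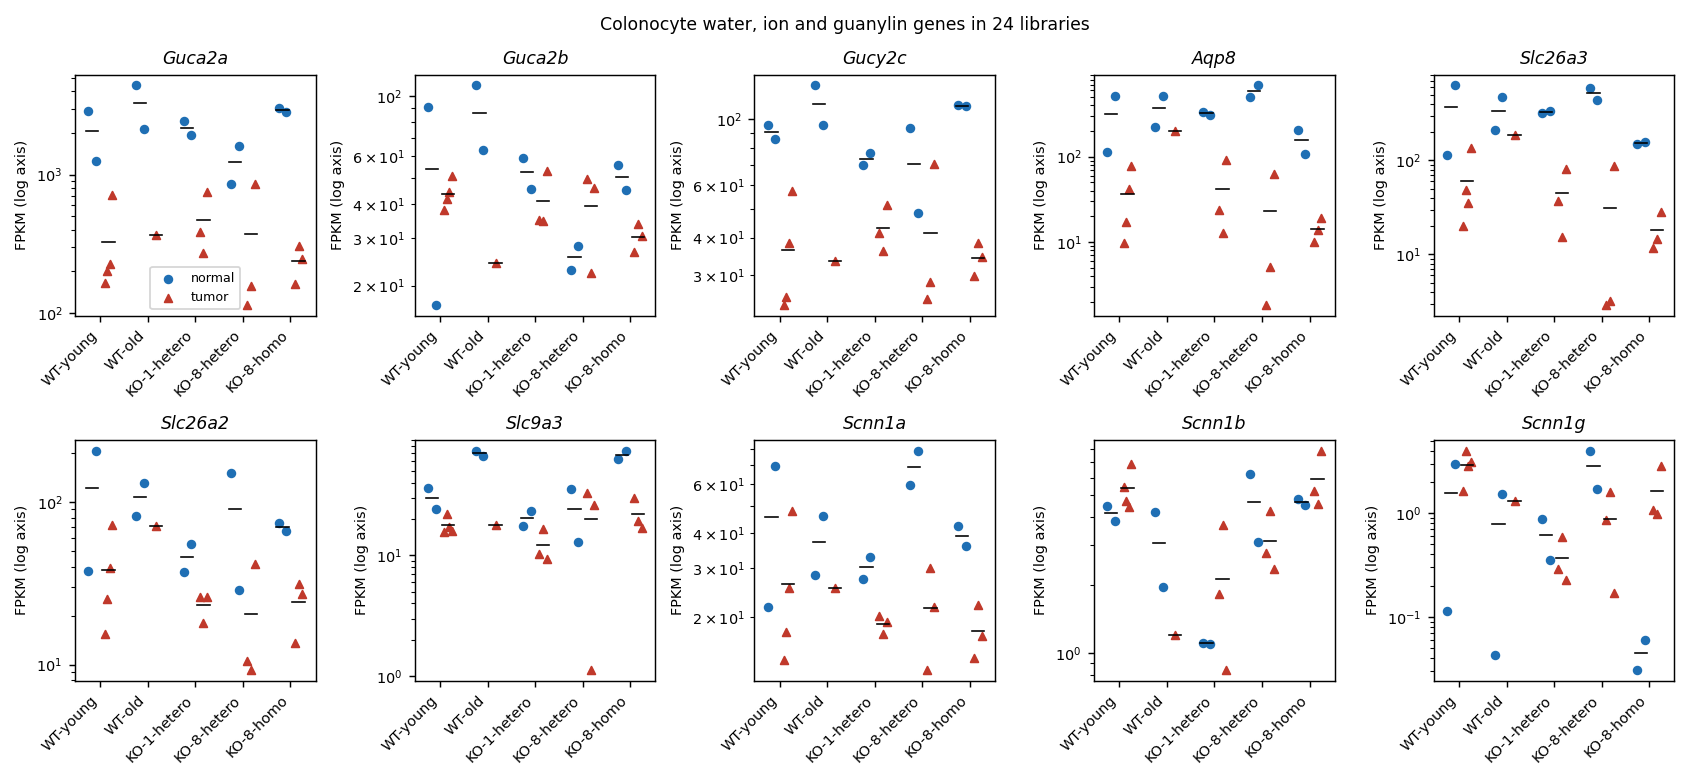
FPKM (log axis) of the 10 genes in all 24 libraries, by title group, with normal tissue as circles, tumors as triangles and the mean of each group as a bar. Guca2a tumors (115 to 852 FPKM) lie below normal tissue (859 to 4419.5 FPKM), while Guca2b tumors (22.2 to 52.9 FPKM) lie within the spread of normal tissue. Scnn1g in normal tissue spreads from 0.0308 to 3.96 FPKM.

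Other cell types differed between tumor and normal pieces as well. Over all tested genes, 14.8% were called lower and 15.5% higher in the WT label, and 23.2% and 24.1% in the KO label. Of 10 absorptive colonocyte markers, 7 were lower and 0 higher in tumors of each label, with summed levels of 2471 to 17853 FPKM in normal tissue and 349 to 3161 FPKM in tumors. Of 9 goblet cell markers, 5 (WT) and 7 (KO) were lower. All 8 smooth muscle markers were lower in tumors of both labels, with a summed level of 930 to 7145 FPKM in WT-labelled and 1402 to 4563 FPKM in KO-labelled normal tissue. In tumors the sum was 173 to 2889 FPKM (WT) and 238 to 1296 FPKM (KO). All 5 neutrophil markers were higher in tumors of both labels (3.63 to 30.5 FPKM summed in normal tissue, 41.5 to 1795 FPKM in tumors). No smooth muscle, neutrophil or pan-epithelial marker was at 0 in any library. None of the 8 pan-epithelial markers was called in the WT label, and 2 of 8 were lower in the KO label, near the share of all genes called lower. Their sum was 6197 to 15339.9 FPKM in normal tissue and 4299 to 11125 FPKM in tumors. When every library was centred on these 8 markers, the median of all genes shifted to 0.33 in the WT and 0.36 in the KO label. Guca2a then stood at -2.77 and -2.41, Gucy2c at -1.23 and -0.76, and Aqp8 at -2.46 and -3.83, all still past the threshold. Under that centring Slc26a3 did not pass in the WT label (-1.91, limma adjusted p = 0.0811), and Guca2b in the KO label changed sign to 0.16 (limma adjusted p = 0.728). The WT-old tumor, which had the highest Aqp8 and Slc26a3, stood apart from the other 13 tumors in several lists. It had the highest smooth muscle sum (2889 FPKM) and the lowest pan-epithelial sum (4299 FPKM). It also had the highest sums of T cell (107 FPKM) and B and plasma cell markers (1815 FPKM) and the lowest Paneth-like sum (117 FPKM). Its 9 crypt stem and Wnt genes summed to 22.6 FPKM, below all 10 normal libraries (28.4 to 57.2 FPKM) and the other 13 tumors (66.5 to 423 FPKM). The part of these cell types in the members' differences was not tested beyond that centring.

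Within single title groups, the tests are smaller and shared 1 estimate of the spread over 10 groups. In KO-1-hetero, 2 of the 10 genes were lower in tumors (Aqp8 and Guca2a) where 14.1% of all genes were called, 6.93% higher and 7.2% lower. In KO-8-hetero, 5 were lower (Aqp8, Slc26a3, Slc26a2, Scnn1a and Guca2a) where 43.1% were called and 21.2% were called lower. In KO-8-homo, 4 were lower (Aqp8, Slc26a3, Guca2a and Gucy2c) against 23% of all genes called and 11.2% called lower. In WT-young, 3 were lower (Aqp8, Guca2a and Gucy2c) against 26.1% called and 12.5% called lower. In WT-old, with 1 tumor assumed to vary like the other groups, 2 were lower (Guca2a and Gucy2c) against 18.5% called and 7.05% called lower. Guca2a was called in the 4 title groups with 3 or 4 tumors, with differences of -2.35, -2.24, -3.67 and -2.81 in that order. The WT-old value of -3.07 rests on 1 tumor. In the KO-8-hetero group, Aqp8 had the largest difference of the 10 genes in any title group, -5.82 (SE 1.08, limma adjusted p = 0.000653). Its normal libraries held 497 and 684 FPKM, and its tumors 1.84, 5.12 and 63.1 FPKM. Slc26a3 in the same libraries went from 592 and 443 FPKM to 2.93, 3.19 and 87.5 FPKM, a difference of -5.50 (SE 1.09, limma adjusted p = 0.00102). In both hetero groups, tumors 1 and 2 had Xist below 1 FPKM, whereas tumor 3 and both normal libraries were above it. By Xist and Ddx3y, tumors 1 and 2 were thus male and the other libraries of these groups female. Tissue and sex partly coincide there, and the part of sex in their differences was not tested.

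Several of these calls rest on single libraries. In KO-1-hetero, both calls were lost without tumor 1, tumor 2 or either normal library (limma adjusted p 0.119 to 0.212). In KO-8-homo, leaving out any 1 of its 5 libraries ended the calls of Aqp8 and Slc26a3 (limma adjusted p 0.0544 to 0.208), and leaving out either normal library did so for Gucy2c (0.0601 and 0.0633). In KO-8-hetero, Guca2a was lost without tumor 1, tumor 2 or normal 2, Slc26a2 without tumor 1, tumor 2 or normal 1, and Scnn1a without normal 2. In WT-young, Aqp8 was lost without tumor 1, tumor 2 or normal 2, and Guca2a and Gucy2c without normal 1. In WT-old, both calls were lost without normal 1 (Guca2a 0.169, Gucy2c 0.141). The directions held in all of these. Other genes passed when 1 library was left out: Slc26a3 in KO-1-hetero without tumor 3, Gucy2c in KO-8-hetero without tumor 3, and in WT-young Slc26a3 without tumor 4, Slc26a2 and Scnn1a without normal 1, and Scnn1g without normal 2. Between title groups, none of 100 member differences of differences passed limma's adjusted threshold, and 8 had an unadjusted p below 0.05. Among pairs without WT-old, the calls over all 13799 tested genes ran from 0 to 395. KO-8-hetero minus KO-8-homo had the most, and both KO-1-hetero and WT-young set against KO-8-homo had 0. Pairs with WT-old rest on its 1 tumor.

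Normal tissue was far from uniform, and 5 of the 10 genes (Scnn1g, Aqp8, Slc26a3, Guca2a and Gucy2c) did not overlap between libraries with low and high summed levels of 6 posterior Hox genes. Over all tested genes, 9.2% did not overlap between these sets, 5.11% being higher and 4.09% lower in the low-Hox set. Hoxa13, Hoxb13, Hoxd13, Hoxd12, Hoxd11 and Hoxd10 mark the distal end of the gut. Their summed level fell into 2 sets over the 10 normal libraries, chosen after the values were seen. It was 14.3 FPKM in WT-old normal 1, 15.3 and 30.5 FPKM in KO-8-homo normals 1 and 2, and 44.5 FPKM in WT-young normal 1. The other 6 normal libraries held 197 to 754 FPKM. Hoxb13 made up most of the sum in these 6, with 183 to 697 FPKM against 6.63 to 36.0 FPKM in the low set. Hoxd13 and Hoxd12 also split without overlap, whereas Hoxa13, Hoxd11 and Hoxd10 overlapped between the sets. These are sets of libraries and not groups of the study, so their values are given side by side with no test and no pooled correlation.

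Scnn1g separated the sets most widely. It was 0.0308 to 0.115 FPKM in the 4 libraries with low Hox sums and 0.355 to 3.96 FPKM in the other 6, so the sets did not overlap. How many fragments lie behind the low values is not known. Its partner Scnn1b showed no such gap, with 4.21 to 4.80 FPKM in the low set and 1.10 to 6.21 FPKM in the others. Scnn1b exceeded Scnn1g 39.2 to 156 times in the low set and 1.28 to 3.10 times in the others.

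Aqp8 and Slc26a3 also split without overlap. Aqp8 was 108 to 223 FPKM in the 4 low-Hox libraries and 309 to 684 FPKM in the other 6. Slc26a3 was 115 to 208 FPKM against 317 to 626 FPKM. Guca2a ran the other way, with 2846 to 4419.5 FPKM in the low-Hox libraries and 859 to 2447 FPKM in the others, and so did Gucy2c, barely, with 95.6 to 129.6 against 48.3 to 95.3 FPKM. Guca2b (44.9 to 109 against 17.0 to 63.0 FPKM), Slc9a3 (36.1 to 73.4 against 12.9 to 66.1 FPKM), Scnn1a (21.8 to 42.4 against 27.5 to 78.9 FPKM) and Slc26a2 (37.6 to 82.0 against 28.8 to 206 FPKM) overlapped. Both WT-labelled groups had 1 library in each set, so the split is present within the WT label. Both KO-8-homo normal libraries were in the low set and both KO-8-hetero ones in the other, so the title group and the Hox level cannot be told apart there. All 4 hetero normal libraries also had Xist above 1 FPKM. The part of tissue position in the tumor comparison was not tested directly. With the mean of the posterior Hox genes as a covariate, an alternative chosen after seeing the data, Guca2a remained past the threshold at -2.27 in the WT and -2.74 in the KO label. Scnn1g moved from 0.89 to 0.10 in the WT label, past the threshold in neither fit.

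**Figure D3:**
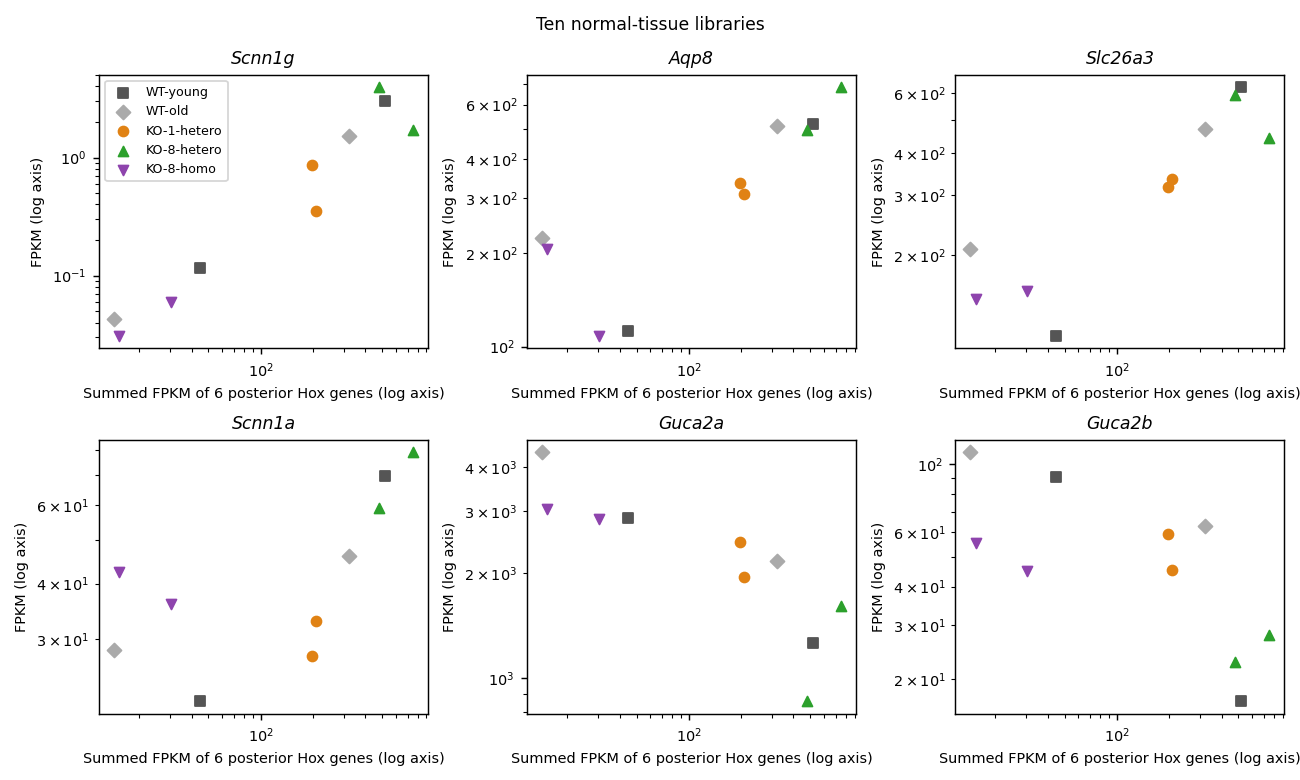
FPKM of 6 of the genes (y, log axis) against the summed FPKM of 6 posterior Hox genes (x, log axis) in the 10 normal-tissue libraries, marked by title group. The 4 libraries with Hox sums of 14.3 to 44.5 FPKM have Scnn1g of 0.0308 to 0.115 FPKM and Guca2a of 2846 to 4419.5 FPKM. The 6 with 197 to 754 FPKM have Scnn1g of 0.355 to 3.96 FPKM and Guca2a of 859 to 2447 FPKM.

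Across the 14 tumors, 5 pairs of genes were correlated on log2(FPKM + 1), with 2-sided permutation p-values (100000 resamples) adjusted over the 5 pairs and both coefficients. Aqp8 and Slc26a3 varied together, with Pearson r = 0.950 and Spearman rho = 0.925 (adjusted permutation p = 3.33e-05 for each, from 1e-05, the smallest the resamples can give). The ligand Guca2a and its receptor Gucy2c gave r = 0.930 and rho = 0.890 (adjusted permutation p = 3.33e-05 and 7.5e-05). Without the 2 tumors farthest from the median of the first gene, r was 0.917 and 0.890. Absorptive colonocyte markers summed to 349 to 3161 FPKM over the tumors, and the part of absorptive cell share in these correlations was not tested. Scnn1b and Scnn1g gave r = 0.703 and rho = 0.727 (adjusted permutation p = 0.00853 for each), and r = 0.781 without 2 tumors. Centred within title groups, the r of that subunit pair was 0.572 with an adjusted permutation p of 0.0539, past the threshold no longer. The 2 ligands were not shown to be related (r = 0.395, rho = 0.363, adjusted permutation p = 0.234 and 0.256), nor were Slc26a3 and Slc9a3 (r = 0.226, rho = -0.138, adjusted permutation p = 0.493 and 0.636).

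The spread among tumors of 1 title group was wide. In KO-8-hetero, tumors 1 and 2 had 1.84 and 5.12 FPKM of Aqp8, 115 and 156 FPKM of Guca2a and 24.9 and 28.5 FPKM of Gucy2c, whereas tumor 3 had 63.1, 852 and 70.8 FPKM. In KO-1-hetero, tumor 3 was likewise the highest of 3 for Aqp8 (90.4 FPKM), Slc26a3 (81.4 FPKM), Guca2a (744 FPKM), Guca2b (52.9 FPKM) and Gucy2c (51.3 FPKM). The same 2 tumors had the lowest Scnn1g of the 14, 0.169 and 0.227 FPKM, and the lowest posterior Hox sums, 30.3 and 52.4 FPKM against 120 to 316 FPKM in the other 12. They were also the only 2 tumors with Xist above 1 FPKM, and the part of Hox or Xist levels in these values was not tested. WT-young tumor 4 was the highest of its group for Aqp8, Slc26a3, Guca2a, Guca2b and Gucy2c with the highest Hox sum (316 FPKM) and Scnn1g of 3.10 FPKM. High guanylin and Aqp8 values thus occurred at both ends of the Hox range among tumors.

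Comparing genotype labels, none of the 10 genes passed the test. KO-labelled and WT-labelled tumors gave 0 of 10 calls with limma, where 0.00725% of all genes (1 gene) was called, and 2 had an unadjusted p below 0.05: Scnn1g (-0.91, SE 0.37, adjusted p = 0.510) and Slc26a3 (-1.68, SE 0.69, adjusted p = 0.514). Their ranges overlapped between the labels, as did those of all 10 genes. In normal tissue 0 of 10 were called, with 0% of all genes called and 0 at an unadjusted p below 0.05. The interaction of label and tissue was called for 0 of 10 genes, against 0% of all genes, and 0 had an unadjusted p below 0.05 by limma. The larger tumor differences of Aqp8 and Slc26a3 in the KO label than in the WT label were therefore not shown to differ: the interactions were -1.41 (SE 1.10, limma adjusted p = 0.986) and -1.70 (SE 1.05, limma adjusted p = 0.986).

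Set against WT-young tumors, each KO group was also tested alone. These 3 comparisons share the 4 WT-young tumors. In KO-1-hetero 1 of 10 genes was lower, Scnn1b, where 2.88% of all genes were called in either direction and 1.25% lower. Its tumors held 1.83, 3.69 and 0.842 FPKM against 5.46, 4.73, 4.45 and 6.91 FPKM, a difference of -1.12 (SE 0.29, limma adjusted p = 0.0451) with no overlap. The call was lost without KO-1-hetero tumor 1 (limma adjusted p = 0.177), KO-1-hetero tumor 3 (0.218) or any 1 of the 4 WT-young tumors (0.0673 to 0.102). It was also lost after centring on the pan-epithelial markers (-0.83, limma adjusted p = 0.269) and with the posterior Hox covariate (-0.996, limma adjusted p = 0.304). Scnn1g did not overlap either (0.292, 0.590 and 0.227 FPKM against 1.64 to 3.98 FPKM) but did not pass (-1.48, SE 0.41, limma adjusted p = 0.0599). Such a gap with the KO-1-hetero tumors lower was found for 2 of the 10 genes and for 14.8% of all genes.

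KO-8-hetero tumors gave 0 of 10 calls, where 0.00725% of all genes were called, and 3 genes at an unadjusted p below 0.05 (Slc26a3, Scnn1b and Scnn1g). Their Scnn1b (2.77, 4.26 and 2.37 FPKM) and Scnn1g (0.864, 1.60 and 0.169 FPKM) lay below every WT-young tumor, a gap found for 4.39% of all genes. KO-8-homo tumors gave 0 of 10 calls (0.457% of all genes called, 0.058% higher and 0.399% lower) and 0 at an unadjusted p below 0.05. Guca2b there (26.6, 33.7 and 30.5 FPKM) lay below every WT-young tumor (38.1 to 50.5 FPKM), 1 gene of the 10 where 11.4% of all genes had such a gap. In contrast to both hetero groups, KO-8-homo Scnn1b (5.23, 4.57 and 7.88 FPKM) overlapped WT-young. Among KO tumors, KO-8-homo against KO-8-hetero (0.0507% of all genes called) and KO-1-hetero against KO-8-hetero (0% called) gave 0 of 10 calls each, with 1 and 0 at an unadjusted p below 0.05. WT-old against WT-young normal tissue also gave 0 of 10 calls with limma, 0% of all genes and 0 at an unadjusted p below 0.05. Without WT-young normal 1, a low-Hox library, Guca2b was higher in WT-old (2.22, limma adjusted p = 0.0430).

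**Figure D4:**
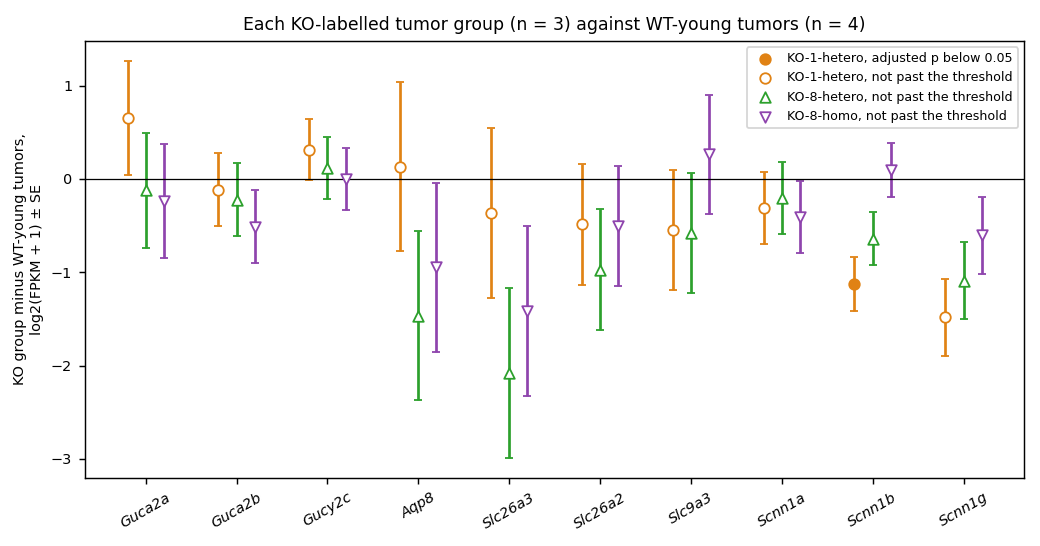
Difference of each KO-labelled tumor group (3 libraries each) from the 4 WT-young tumors on the log2(FPKM + 1) scale, with its standard error. The 1 filled point, Scnn1b in KO-1-hetero at -1.12, passed an adjusted p of 0.05. The points for Guca2a and Gucy2c lie within 1 unit of 0, and those for Aqp8 and Slc26a3 reach -2.08 with wide errors.

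Of 9 genes that act downstream of Gucy2c, 1 was higher and 6 lower in WT-labelled tumors, where 30.4% of all genes were called, 15.5% higher and 14.8% lower. In KO-labelled tumors 2 were higher and 3 lower, near the share of all genes called (47.2%, with 24.1% higher and 23.2% lower). The medians were -0.72 and -0.43. Abcc4, which exports cyclic nucleotides, rose in both labels, by 1.52 (SE 0.29, limma adjusted p = 0.00070) and 1.77 (SE 0.23, limma adjusted p = 4.83e-06). Slc9a3r1, a scaffold that holds Slc9a3 at the membrane, fell by 1.01 and 1.05 (limma adjusted p = 0.0154 and 0.00113). Cftr, the chloride channel opened by this pathway, fell by 1.53 and 0.91 (limma adjusted p = 0.00667 and 0.0205).

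Of 12 listed regulators of the sodium channel, 6 were lower in WT-labelled tumors (14.8% of all genes called lower) and 9 in KO-labelled tumors (23.2%), and 0 were higher, with medians of -0.89 and -0.99 against 0.02 over all genes. Prss8, a protease that activates the channel, went from 40.7 ± 10.9 (SD, n = 4) to 16.5 ± 4.15 FPKM (SD, n = 5) in the WT label and from 44.5 ± 9.30 (SD, n = 6) to 17.7 ± 4.15 FPKM (SD, n = 9) in the KO label. The differences were -1.26 (limma adjusted p = 0.000225) and -1.29 (limma adjusted p = 4.27e-06). Nedd4l, the ligase that removes the channel, fell by 1.06 and 0.85 (limma adjusted p = 0.000104 and 2.09e-05). Sgk1, the kinase that counters Nedd4l, fell by 1.62 in the KO label (limma adjusted p = 8.66e-05) and was at -0.38 in the WT label (limma adjusted p = 0.428).

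Of 24 other transporters, channels and carbonic anhydrases of the colon, 23 passed the filter. In each label 14 were lower and 2 higher (all genes: 14.8% lower and 15.5% higher in the WT label, 23.2% and 24.1% in the KO label), with medians of -1.02 (WT) and -0.93 (KO). Car4, a membrane carbonic anhydrase of absorptive cells, fell by 3.33 and 4.55 (limma adjusted p = 0.00705 and 2.38e-05). Slc16a1, a carrier of short-chain fatty acids, fell by 1.20 and 1.51 (limma adjusted p = 0.00348 and 1.95e-05), and Car2 fell by 2.40 and 2.14 (limma adjusted p = 0.000849 and 9.74e-05). Clca4b rose by 4.78 and 4.54 (limma adjusted p = 3.72e-05 and 1.22e-06), from 12.3 ± 16.8 (SD, n = 4) to 263 ± 184 FPKM (SD, n = 5) in the WT label. Clca4a, a close copy named here for that reason, was not called in either label, and reads of the 2 could be split between them.

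Of 7 other aquaporins, 4 passed the filter. Aqp3 did not, despite a mean of 5.79 FPKM, as fewer than 4 libraries reached 1 FPKM. The 7 summed to 30.6, 166 and 200 FPKM in KO-8-hetero tumors, against 97.9 and 108 FPKM in normal tissue of that group. In every other title group the tumor sums lay below the normal ones. In the WT label 3 were lower and 0 higher, where 30.4% of all genes were called, and in the KO label 3 were lower and 1 higher, where 47.2% were called. Aqp11 fell by 1.63 and 1.35 (limma adjusted p = 5.87e-05 and 8.48e-06), Aqp4 fell by 1.96 and 1.76 (limma adjusted p = 0.0316 and 0.00957), and Aqp1, found mostly in vessels, fell by 1.34 and 0.86 (limma adjusted p = 0.00528 and 0.0111). Each change is smaller than that of Aqp8 in the same label, though the difference between the genes was not tested. Aqp5, the 1 called higher, rose by 0.83 in the KO label (limma adjusted p = 0.00873), from 0.0493 ± 0.0165 (SD, n = 6) to 1.06 ± 0.980 FPKM (SD, n = 9). Its mean over all libraries was 0.487 FPKM, near the floor. No KO-labelled normal library reached the 1 FPKM of the filter, so Aqp5 passed it only through other libraries. Its call is given as a description.

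Slc26a2 supplies sulfate, and 10 of 12 genes that activate, carry or transfer sulfate passed the filter. In the WT label 6 were lower and 1 higher (30.4% of all genes called), and in the KO label 7 lower and 2 higher (47.2% called), with medians of -0.61 and -0.77. Sult1a1, a sulfotransferase, went from 324 ± 56.4 (SD, n = 4) to 31.4 ± 27.7 FPKM (SD, n = 5) in the WT label, a difference of -3.82 (limma adjusted p = 3.58e-05), and by -3.95 in the KO label (limma adjusted p = 4.71e-07). Papss1, which makes the activated sulfate donor, fell by 0.70 and 0.93 (limma adjusted p = 0.000601 and 8.84e-07). Sulf1, an extracellular sulfatase, rose by 1.57 and 1.96 (limma adjusted p = 0.00503 and 3.76e-05).

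Of 14 transcription factors that shape the colonocyte, 13 passed the filter, and 8 were lower in tumors of each label and 0 higher (14.8% and 23.2% of all genes called lower), with medians of -0.82 and -0.75. Cdx1, a caudal homeobox factor, fell by 1.82 and 1.74 (limma adjusted p = 5.23e-05 and 1.69e-06). Klf4 fell by 1.07 and 1.63 (limma adjusted p = 0.0415 and 0.000224), and Vdr, the vitamin D receptor, by 1.64 and 1.59 (limma adjusted p = 0.00289 and 0.000229). Cdx2, the other caudal homeobox factor of the colon, fell by 3.04 and 1.43 (limma adjusted p = 0.00128 and 0.0218). None of the 6 pathway lists held a gene called between KO-labelled and WT-labelled tumors.

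Among the genes whose profile was most like the mean of the 10 across the 14 tumors were Mep1a (r = 0.963), a brush border protease, Mkrn1 (0.943), Cyp2d34 (0.935) and Prss30 (0.929). These r values describe the best of all tested genes and carry no test. Mep1a was 15.7 to 85.6 FPKM in WT-labelled and 5.59 to 45.4 FPKM in KO-labelled tumors, against 108 to 181 and 89.9 to 155 FPKM in normal tissue. Of the 10 genes, Slc26a2 was the closest to their own mean in tumors (r = 0.919, itself part of the mean) and Scnn1b the farthest (r = 0.04). Across the 10 normal libraries the most alike were Thrap3 (r = 0.965), Pitpnb (0.941), Alkbh5 (0.940), Ppfia1 (0.939) and Dync1h1 (0.934). The 10 genes themselves shared little there. With their own mean, Slc26a2 gave r = 0.867, Guca2a -0.212 and Guca2b -0.192, and the others ran from 0.312 (Aqp8) to 0.553 (Slc9a3). The mean over normal libraries thus did not follow the guanylin genes.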

How the data were processed

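Bulk RNA-seq was measured in 24 colorectal libraries, prepared with a stranded mRNA kit, per the labels' protocols. Per the submitters' processing notes, the tools were TopHat2 2.1.1, Bowtie2 2.2.8, SAMtools 0.1.18 and Cuffdiff 2.2.1 on mm10. The authors deposited 1 table of FPKM values per library, 24346 symbols each, with no read counts, so no count model could be used. FPKM steps gave relative depth (0.690 to 1.87) but not totals, and counting error cannot be computed. Genes with at least 1 FPKM in at least 4 libraries were kept and log2(FPKM + 1) was fitted with limma 3.58.1 (R 4.3.3; empirical Bayes with intensity trend), using all 24 libraries. A model of 4 classes (label by tissue) and a model of 10 groups (title group by tissue) were fitted, with Benjamini-Hochberg adjustment and a threshold of 0.05. A fold change on this scale understates the change of low genes. Correlations, ratios and figures used Python 3.11.15 with scipy 1.17.1.

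On simulated data over 13799 genes, a log2 change of 1 was recovered for 87.2% of changed genes in tumor against normal tissue of the KO label and 78.9% of the WT label. Within WT-young alone it was 60.3%. These are shares over all genes and say less about members with a wide spread. The 10 genes and the gene lists were chosen with earlier results of these data known. All 10 genes are described, and of each list up to 4 genes with the smallest p past the threshold in a tumor against normal comparison are named. The profiles most like the mean of the 10 are the 5 highest r over tumors and over normal libraries. Alternatives were another pseudocount, other filters and scalings, library weights, no trend, replicate blocks, leaving out libraries, and a posterior Hox covariate chosen after seeing the data. Gene positions are from GENCODE M21 (GRCm38) and promoters from RefSeq. None of the 24 tables was left out. Some genes that these rules pick are not reported here.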

Additional observations from a re-analysis of the deposited data

Results flagged for a closer look

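Slc9a3 in KO-8-hetero tumor 2 was 1.13 FPKM, far below the other 8 KO-labelled tumors. Its gap to the next value was 0.572 of the whole range on the log2(FPKM + 1) scale. It was the 1 library set apart in this way over 50 combinations of gene and group, where chance sets apart about 1 in 20.

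The tumor minus normal difference of Scnn1g had opposite signs in KO-8-homo and KO-8-hetero, and neither passed (limma adjusted p = 0.0722 and 0.0950). It was 1.26 in KO-8-homo (normal 0.0308 and 0.0596 FPKM, tumors 1.08, 0.969 and 2.81 FPKM) and -1.04 in KO-8-hetero (normal 3.96 and 1.72 FPKM, tumors 0.864, 1.60 and 0.169 FPKM). With a pseudocount of 0.1 the KO-8-homo value was 3.42 and passed (limma adjusted p = 0.0261). The difference of the differences came to -2.30 with an SE of 0.696 and did not pass the threshold (limma adjusted p = 0.0757). The normal libraries of KO-8-homo were in the set with low posterior Hox sums and those of KO-8-hetero were not, and the part of this was not tested.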

How the results depend on the processing

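Of 27 member values past the threshold, 8 held under every alternative: Aqp8, Slc26a3, Slc26a2, Guca2a and Gucy2c in tumors of the KO label, Guca2a and Gucy2c in the WT label, and Guca2a in KO-8-homo. None of the 27 changed sign, 16 lost the threshold when 1 library was left out, and 16 under another alternative. Of 133 values not past it, 70 changed sign under some alternative and 25 passed under some. Counts of the 10 genes called, leaving out 1 library in turn, were 2 to 6 in tumors of the WT label, 6 to 7 (KO label), 0 to 3 (KO-1-hetero), 3 to 6 (KO-8-hetero), 1 to 2 (KO-8-homo), 2 to 4 (WT-young) and 0 to 2 (WT-old), 0 to 1 for KO-1-hetero against WT-young tumors and 0 to 1 for WT-old against WT-young normal tissue. Tumor against normal in KO-1-hetero gave 1 with a pseudocount of 0.1, 0 with no filter, 0 with quantile scaling, 1 centred on the pan-epithelial list, 4 with library weights, 1 without WT-old and 4 with the number as a block. KO-1-hetero against WT-young tumors gave 0 with no filter, 2 with quantile scaling, 0 with that centring, 2 with library weights, 0 with the number as a block and 0 with the posterior Hox covariate. KO-8-homo gave 2 with no filter, 9 with library weights and 2 with the covariate, and WT-old gave 1 with no filter, 0 with quantile scaling, 1 with that centring and 0 with the covariate. With library weights the WT label gave 9, KO-8-hetero 0 and KO against WT tumors 1. Replicate numbers were not shown to pair the samples: over 8 pairs the correlation of deviations ran from -0.159 to 0.355, with 1 above 0.1. With 2 normal libraries per title group, their deviations mirror each other, so this check alone cannot exclude pairing. In KO-1-hetero and KO-8-hetero, however, tumors 1 and 2 were male by Ddx3y (9.43 to 12.5 FPKM). Normals 1 and 2 of these groups were female by Xist (7.38 to 30.3 FPKM), so same-numbered pieces there did not share a mouse. The replicate blocks still joined them. With the number as a replicate block WT-young gave 6, and with title group and number as a replicate block the WT label gave 2. The cause of these moves was not tested. The correlation of Scnn1b and Scnn1g centred within title groups was 0.572. Without read counts, the depth behind low values such as Scnn1g in normal tissue is not known in reads.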
